A study of Mus musculus with 4 samples.

Results

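Proximal tubule S3 cells are the epithelial cells of the last, straight segment of the proximal tubule, and 8342 of them were identified among 41076 barcodes (cell-sized droplets) that passed the limits on quality, 20.3% of the total. The members were chosen by measured values: a barcode needed 300 or more detected genes, at most 50% mitochondrial molecules, 3 or more molecules of Slc7a13, at most 1 molecule of Slc5a2 (an S1 and S2 glucose transporter) and at most 1 each of Slc12a1, Slc12a3 and Aqp2, which mark later segments. A molecule here is a unique molecular identifier (UMI), the tag that lets each captured RNA be counted 1 time. The 4 matrices held 52478 barcodes before these limits.

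Kidneys came from C57BL/6J mice of both sexes (genotype given as C57BL/6), 10 weeks old, and the RNA of their dissociated cells was sequenced in droplets (10x Genomics, V3 kit for 3' ends). Mice of 3 groups received 10 µg per mouse of recombinant human FGF23 into the peritoneum, and tissue was taken 1, 4 or 12 h later. The control group is labelled 0 h with a dose of 0 µg, and the labels leave it unsettled whether its mice were injected with vehicle. Male and female kidneys were digested together as pairs after which dead cells were removed, giving 1 library per time, 4 in all. The number of animals behind each library is not stated, so time, animal and preparation cannot be told apart, and no difference between times has a replicate check.

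The S3 segment runs from the cortex into the outer medulla, recovers remaining amino acids and peptides from the filtrate, and secretes organic ions and drugs into it. FGF23 is a bone-derived hormone that binds FGF receptors together with the co-receptor Klotho, signals through the ERK kinase cascade, lowers renal phosphate reabsorption and shifts vitamin D metabolism from activation by Cyp27b1 to breakdown by Cyp24a1. The S3 segment of rodents is known for strong differences between the sexes, several of them driven by androgen.

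The 0, 1, 4 and 12 h libraries held 2560, 2137, 2094 and 1551 S3 cells, with 29479038 to 46878973 UMIs in all and medians of 17835 to 19263 UMIs and 3521 to 3785 genes per cell. The median mitochondrial share of S3 cells was 14.8% at 4 h and 21.0% to 22.0% in the other libraries. Of the S3 cells, 98.2% to 99.3% of those with a sex call carried Y-linked RNA, against 51.1% to 55.7% of the Slc5a2 cells of the same libraries. Here a male call means 1 or more UMIs of 4 Y-linked genes and none of Xist, and a female call the reverse. Cells chosen by Slc7a13 therefore came largely from the male kidney of each pair. A doublet caller marked 5.38% to 6.88% of S3 cells, and they were kept. The libraries shared 36 to 57 barcodes pairwise, of which 1 or 2 were S3 cells in both libraries.

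Slc7a13 encodes an amino acid transporter of the S3 brush border (chr4:19818725-19842218, plus strand, GENCODE vM21 on GRCm38), and the label was checked with 3 markers that the rule did not use. Slc22a30 belongs to the organic anion transporters (chr19:8335371-8405111), Atp11a is a phospholipid flippase, and Cyp7b1 is an oxysterol and steroid hydroxylase (chr3:18071950-18243338). Levels are in CPM, the UMIs of a gene divided by all UMIs summed over the S3 cells of a library and scaled to the usual common total, and every interval on them covers counting error only. Across the 0, 1, 4 and 12 h libraries Slc22a30 stood at 416, 410, 330 and 272 CPM, against 107, 103, 72.6 and 66.2 CPM in Slc5a2 cells. Slc5a2 cells are barcodes under the mirror-image rule, with 3 or more UMIs of Slc5a2 and at most 1 of Slc7a13. Atp11a stood at 629, 631, 381 and 291 CPM, against 27.2 to 47.9 CPM in Slc5a2 cells. Cyp7b1 stood at 65.2, 21.3, 61.1 and 33.4 CPM, against 0.172 to 0.25 CPM. Few S3 cells carried that level: 7.5%, 2.76%, 6.83% and 4.58% held a UMI of Cyp7b1, against 0.201% to 0.35% of Slc5a2 cells and 4.57%, 5.09%, 4.41% and 2.55% of the shallower endothelial-gated barcodes. After thinning S3 cells to 5000 UMIs and endothelial-gated ones to 2000 the shares were 6.6%, 2.25%, 5.63% and 3.52% against 2.4%, 2.03%, 2.48% and 1.47%. The depths are unlike and raise the S3 shares, so these pairs do not show that S3 cells hold Cyp7b1 more often. Endothelial-gated barcodes are those with 3 or more UMIs summed over Kdr, Emcn, Flt1 and Pecam1. All 3 markers were higher in S3 cells than in Slc5a2 cells in every library in summed level, so none went against the label there. Cyp7b1 marks a minority of the members, and at 1 h a smaller share of S3 cells than of endothelial-gated barcodes held it (2.76% against 5.09%, unthinned). The classes also differ in sex calls. In male-called cells alone the edgeR log2 ratios of S3 to Slc5a2 cells were 1.58 for Slc22a30, 3.41 for Atp11a and 7.56 for Cyp7b1. Over all cells they were 2.30, 3.83 and 8.03.

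**Figure D1:**
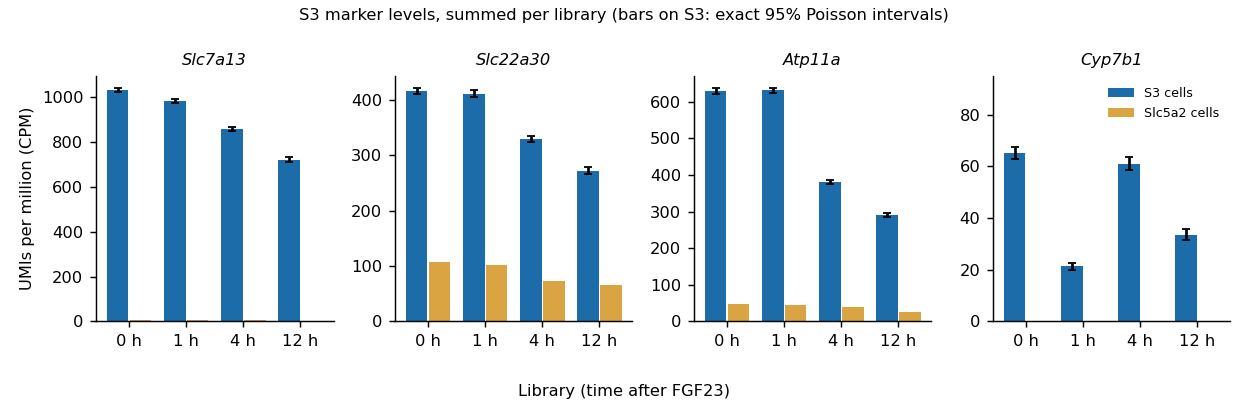
Summed level of 4 S3 markers (CPM, linear axis from 0) in S3 cells and Slc5a2 cells of each library, 1 library per time; error bars are exact 95% Poisson intervals on S3 cells. Slc7a13 chose the cells, and Atp11a goes from 629 CPM at 0 h to 291 CPM at 12 h.

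The threshold on Slc7a13 was not a gap in the data. There were 120, 105, 161 and 170 barcodes with exactly 2 UMIs of Slc7a13 that met every other condition, and 107, 96, 137 and 131 with exactly 3. At 0 h Atp11a was 319 CPM in the barcodes just outside and 342 CPM in those just inside, and Slc22a30 was 200 and 277 CPM. Barcodes of another kind reached the threshold at times: among endothelial-gated barcodes, which should lack Slc7a13, 4.57%, 2.24%, 3.89% and 2.88% held 3 or more UMIs of it, at a median depth of 2632 to 2772 UMIs. Whether free RNA or droplets with more than 1 cell gave these was not tested.

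The share of barcodes that met the S3 rule was 25.3% in the 0 h library, with an exact 95% Clopper-Pearson interval of 24.4% to 26.1%. It was 22.5% (21.7% to 23.4%) in the 1 h, 18.8% (18.1% to 19.6%) in the 4 h and 15.0% (14.3% to 15.7%) in the 12 h library. The order was the same after each barcode was thinned to 3000 UMIs, with 17.6%, 13.8%, 9.54% and 6.56%, which left out 1129 to 1712 shallower barcodes per library. Slc5a2 cells made up 21.9%, 24.1%, 27.2% and 24.0%. Among the members themselves the median count of Slc7a13 was 17, 16, 13 and 10 UMIs and its summed level 1032, 982, 858 and 720 CPM. Since Slc7a13 defines the class, fewer S3 cells and less Slc7a13 per cell cannot be told apart in these shares.

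**Figure D2:**
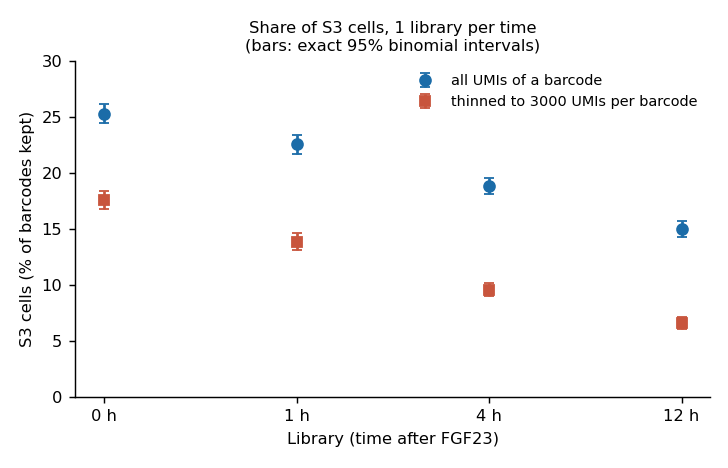
Share of kept barcodes that met the S3 rule (%, vertical axis) in each library, with all UMIs and after thinning each barcode to 3000 UMIs; bars are exact 95% binomial intervals. Both series are highest at 0 h (25.3% and 17.6%) and lowest at 12 h (15.0% and 6.56%).

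S3 cells differed among themselves along their own Slc7a13 level. Cells above 1000 CPM of Slc7a13 were 47.0%, 43.3%, 31.6% and 21.0% of S3 cells at 0, 1, 4 and 12 h, and those under 500 CPM were 15.1%, 17.3%, 24.3% and 35.5%. Cyp7b1 was concentrated at the high end. At 0 h it stood at 13.0 CPM in the low, 17.9 CPM in the middle and 121 CPM in the high group, and at 12 h at 3.95, 10.4 and 133 CPM. Slc22a7, an organic anion transporter, followed the same order, with 49.8, 96.4 and 234 CPM at 0 h and 29.2, 71.9 and 234 CPM at 12 h. Within the high group both genes were thus about as abundant at 12 h as at 0 h, and at 1 h both were lower in that group, at 37.9 CPM of Cyp7b1 and 111 CPM of Slc22a7. At 4 h the high group held 136 CPM of Cyp7b1 and 379 CPM of Slc22a7, the highest library for both. Cyp24a1 ran the other way, with 296, 268 and 166 CPM from the low to the high group at 12 h. These groups are ranges of a continuous value and share the rule's own gene, so no test was made on them.

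**Figure D3:**
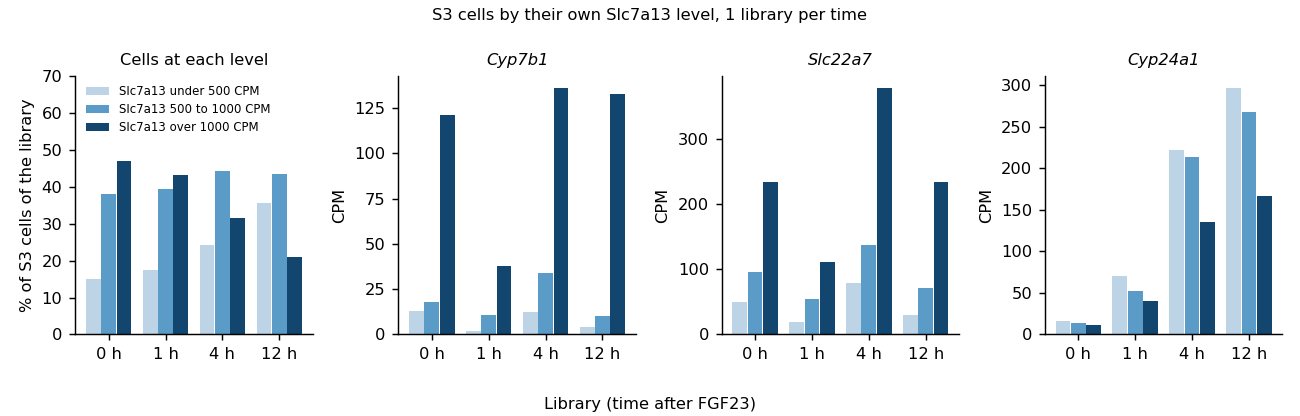
S3 cells of each library divided by their own Slc7a13 level (under 500, 500 to 1000, over 1000 CPM): share of S3 cells in each range (%) and summed Cyp7b1, Slc22a7 and Cyp24a1 (CPM, linear axes from 0). The high range shrinks from 47.0% to 21.0% of cells, while Cyp7b1 in it is 121 CPM at 0 h and 133 CPM at 12 h.

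Each time was compared with the 0 h library for all genes with 100 or more UMIs over both libraries. A gene was called higher or lower when its summed level differed at least 2-fold in all S3 cells and the same way at least 2-fold in the male-called S3 cells alone; this is a rule of size, with no test across samples. At 1 h, 32 of 10681 genes were called higher (0.3%) and 61 lower (0.571%). At 4 h the counts were 155 higher (1.45%) and 134 lower (1.25%) of 10698, and at 12 h 111 higher (1.05%) and 171 lower (1.62%) of 10533. All 3 comparisons share the 0 h library. The median log2 ratio over all genes was -0.00, 0.00 and -0.06.

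Immediate early genes, which encode transcription factors and regulators switched on within minutes of receptor signalling, were called higher in 4 of 17 tested members at 1 h, against 0.3% of all genes. Egr1, a zinc finger factor downstream of ERK, stood at 31.6, 240, 21.5 and 7.90 CPM at 0, 1, 4 and 12 h, a log2 ratio of 2.93 at 1 h (exact 95% interval 2.85 to 3.01) and -2.00 at 12 h. The 1 h library was far above the others and the 12 h library far below. After thinning every S3 cell to 5000 UMIs, 8.82%, 57.2%, 7.71% and 2.26% of cells held Egr1 (17.7%, 85.1%, 20.6% and 6.58% unthinned, with 76, 51, 70 and 46 shallower cells left out by thinning), while endothelial-gated cells thinned to 2000 UMIs gave 15.5%, 18.8%, 12.1% and 5.29%. Only the 1 h share of S3 cells was above that of endothelial-gated cells, which may also use Egr1 themselves. S3 cells were thinned to the greater depth, which raises their shares in this comparison. Of Slc5a2 cells thinned to 5000 UMIs, 3.26%, 49.4%, 5.41% and 1.12% held Egr1, below the S3 share in every library. The part of free RNA in these shares was not tested. Hbegf, an EGF receptor ligand outside this list, went from 33.9 to 129 CPM at 1 h and was 31.7 and 17.4 CPM later. Ier2 (27.8 to 64.4 CPM), Klf6 (21.5 to 48.8 CPM) and Atf3 (1.47 to 3.27 CPM) were the other immediate early genes called higher at 1 h. After thinning, 0.644% and 1.20% of S3 cells held Atf3 at 0 and 1 h, against 2.93% and 3.81% of endothelial-gated cells, which may use Atf3 themselves.

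By 12 h the same list lay below the 0 h library. All 18 measured members had a negative log2 ratio at 12 h (median -1.27, against -0.06 for all genes), 10 of 16 tested were called lower, against 1.62% of all genes, and none was called higher. Fos stood at 62.9, 72.9, 28.5 and 9.40 CPM, Fosb at 85.6, 66.1, 27.7 and 20.5 CPM, and Jun at 357, 322, 246 and 148 CPM. For these AP-1 subunits the 0 and 1 h libraries were the high ones and the 12 h library the lowest. After thinning, 15.4%, 14.3%, 7.41% and 3.52% of S3 cells held Fos (24.8%, 24.6%, 14.0% and 6.71% unthinned), against 18.7%, 18.3%, 14.7% and 3.38% of endothelial-gated cells, which may use Fos themselves. The S3 shares of Fos were thus near or below those of endothelial-gated cells, although S3 cells were thinned to the greater depth. The shares of both were lowest at 12 h. The part of free RNA in them was not tested. Dusp1, a phosphatase of stress kinases and p38, stood at 180, 97.9, 22.6 and 37.8 CPM and was called lower at 4 and 12 h. Male-called Slc5a2 cells gave Fos 105, 82.4, 24.7 and 7.03 CPM, also lowest at 12 h.

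ERK feedback genes encode phosphatases and adaptors that damp the cascade that induces them, and 2 of 15 tested were called higher at 1 h, against 0.3% of all genes, and 6 of 17 at 4 h, against 1.45%. Dusp6, the phosphatase that inactivates ERK, stood at 15.3, 44.1, 38.6 and 23.2 CPM, log2 ratios of 1.52 (1.40 to 1.65), 1.33 (1.20 to 1.46) and 0.60. Its level was highest at 1 h and still above the 0 h library at 12 h. After thinning to 5000 UMIs, 6.52%, 18.4%, 16.3% and 10.2% of S3 cells held Dusp6 (21.6%, 49.8%, 45.4% and 31.2% unthinned). Endothelial-gated cells thinned to 2000 UMIs, which may use Dusp6 themselves, gave 16.0%, 16.2%, 16.9% and 14.5%. At 0, 4 and 12 h the S3 share was lower despite the greater depth. At 1 h it was higher, but the depths are unlike, so that does not rank the cells. Dusp4, a nuclear phosphatase of the same family, stood at 5.23, 10.9, 12.4 and 7.94 CPM, and Spry4, an inhibitor of receptor tyrosine kinase signalling, at 3.69, 6.90, 9.95 and 3.77 CPM. Dusp5 (0.661 to 1.76 CPM) and Phlda1 (0.448 to 2.50 CPM) were called higher at 4 h as well. Fgfbp3, which binds FGF ligands, was called higher at 4 h too (0.96 to 2.04 CPM). Dusp1 belongs to this list and was its member called lower at 4 h. The transcription factor Etv5 was not called at any time, at 5.48, 6.87, 6.10 and 6.65 CPM. In male-called Slc5a2 cells Dusp6 started higher, at 37.6, 127, 73.0 and 43.6 CPM. The difference between the classes in these responses was not tested.

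Several regulators outside those lists were called higher at 1 h. Hes1, a repressor and target of Notch and other pathways, stood at 7.02, 23.4, 29.7 and 14.3 CPM in S3 cells and was called at 1 and 4 h. In male-called Slc5a2 cells it reached 81.4 CPM at 1 h and 36.2 CPM at 4 h, from 7.49 CPM, so the highest library was 1 h there and 4 h in S3 cells. After thinning, 3.74%, 9.59%, 11.4% and 6.78% of S3 cells held Hes1 (10.7%, 26.6%, 32.1% and 21.0% unthinned), below the 24.8%, 29.4%, 34.7% and 35.8% of endothelial-gated cells, which may use Hes1 themselves. Id1 and Id3, inhibitors of helix-loop-helix factors, were called at 1 and 12 h, with 12.0, 55.7, 8.24 and 33.8 CPM for Id1 and 6.40, 25.8, 10.2 and 36.3 CPM for Id3. For both, the 4 h library lay close to 0 h between the high libraries. Bhlhe40, a helix-loop-helix repressor tied to the clock, stood at 26.9, 88.6, 59.3 and 43.1 CPM and was called at 1 and 4 h.

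Cyp24a1, the mitochondrial enzyme that breaks down active vitamin D (chr2:170482708-170497145, minus strand), was called higher at all 3 times. It stood at 13.2, 49.7, 191 and 257 CPM in S3 cells, log2 ratios of 1.91 (1.78 to 2.04), 3.85 (3.73 to 3.97) and 4.28 (4.16 to 4.40), so each library was above the one before it. In Slc5a2 cells the levels were 122, 545, 725 and 436 CPM, with the highest library at 4 h in male-called (834 CPM) and female-called (668 CPM) cells. After thinning to 5000 UMIs, 4.03%, 11.9%, 38.3% and 52.1% of S3 cells held Cyp24a1 (8.32%, 20.8%, 50.9% and 69.2% unthinned), against 32.0%, 73.2%, 85.8% and 72.2% of Slc5a2 cells. Endothelial-gated cells thinned to 2000 UMIs gave 3.2%, 5.33%, 5.95% and 8.22%, a share that also grew. At 0 h the S3 share was little above that of endothelial-gated cells, even though S3 cells were thinned to the greater depth. How much free RNA adds to it was not tested. The other vitamin D genes were not called at any time, 8 of the 9 tested, against 0.3% to 1.62% of all genes called per time and direction. Vdr, the vitamin D receptor, stood at 95.6, 108, 147 and 162 CPM.

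Cyp27b1, the activating enzyme, was at 0.171, 0.194, 0.0255 and 0.136 CPM in S3 cells, too few UMIs for the rule, while Slc5a2 cells held 7.42, 2.56, 0.27 and 0.619 CPM. None of the 9 tested genes for phosphate transport and none of the 9 for FGF receptors and Klotho was called at any time. Among all genes 0.3% to 1.62% were called per time and direction, so lists this short would seldom hold a call. Slc34a1, the main phosphate transporter of the brush border, stood at 3286, 3380, 3472 and 3086 CPM, and Slc34a3 at 0.799 to 1.24 CPM. Kl, encoding Klotho, stood at 215, 214, 140 and 149 CPM, a log2 ratio of -0.62 (-0.67 to -0.58) at 4 h and -0.53 (-0.58 to -0.48) at 12 h, short of 2-fold. The later libraries were the lower ones in Slc5a2 cells also, at 238, 209, 145 and 136 CPM. Fgfr1, Fgfr3 and Fgfr4 ranged from 10.4 to 15.9 CPM over the 4 libraries, Fgfr2 from 0.051 to 0.299 CPM, and no UMI of Klb was counted in any S3 cell.

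**Figure D4:**
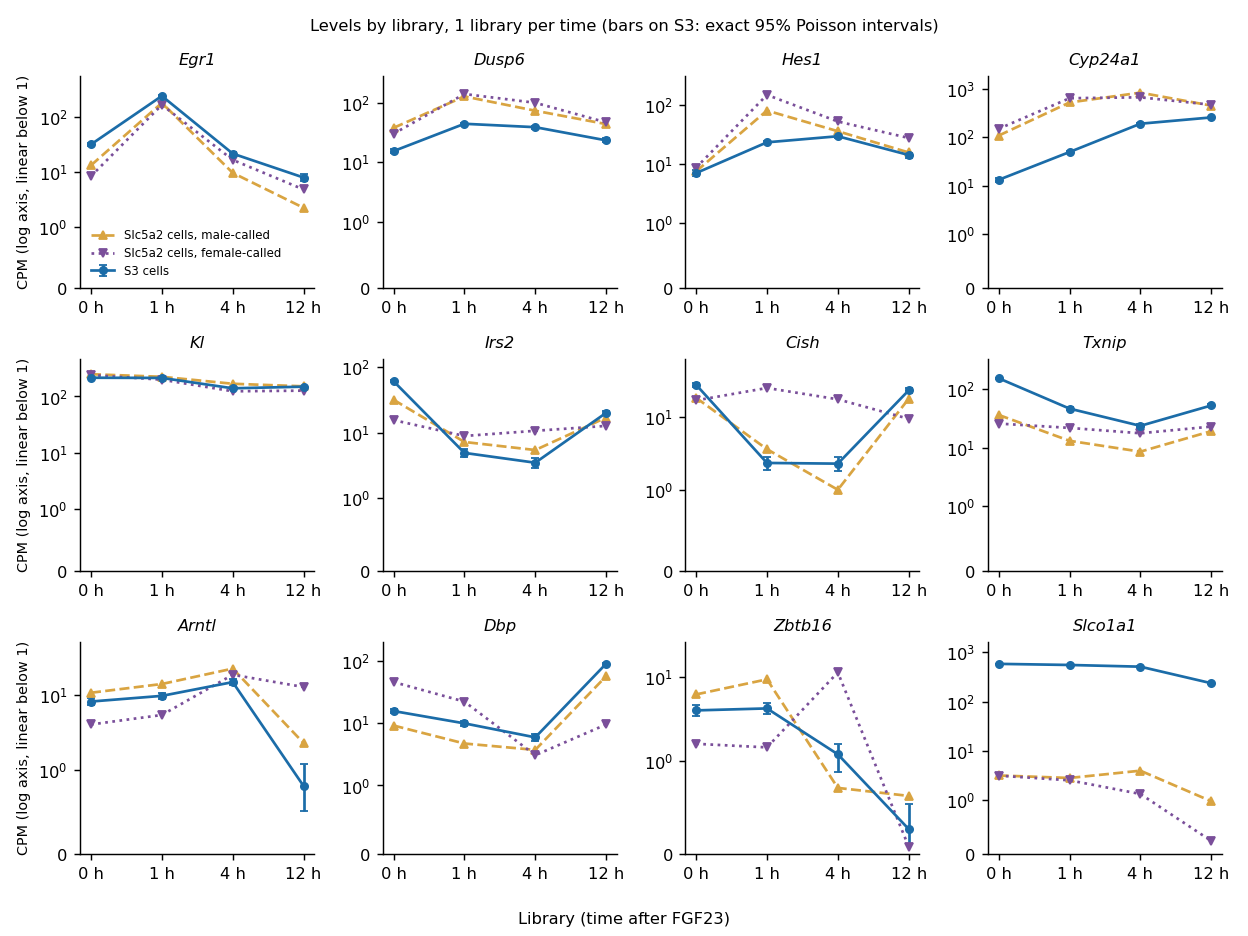
Levels of 12 genes (CPM, log axis that is linear below 1) in S3 cells and in male-called and female-called Slc5a2 cells of each library, 1 library per time; bars on S3 cells are exact 95% Poisson intervals. Egr1 is highest at 1 h in all 3 cell groups, and Cyp24a1 is highest at 12 h in S3 cells (257 CPM) but at 4 h in Slc5a2 cells.

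Irs2 and Cish had large falls at 1 and 4 h that were spread over many cells. Irs2, the insulin receptor substrate, stood at 61.2, 4.94, 3.50 and 20.2 CPM in S3 cells, log2 ratios of -3.63 (-3.84 to -3.43), -4.12 (-4.39 to -3.88) and -1.60. It was detected in 1460, 189, 126 and 433 S3 cells, so the 0 h library stood well apart. Cish, a feedback inhibitor of cytokine receptors that STAT5 induces, stood at 27.6, 2.35, 2.30 and 23.1 CPM and in 918, 89, 71 and 511 cells. Its 1 and 4 h libraries were low and its 12 h library was back near 0 h. Gadd45g (214, 48.2, 23.0 and 30.3 CPM) and Txnip (153, 46.4, 23.6 and 52.5 CPM) were called lower at all 3 times. Gadd45g is a growth arrest factor, and Txnip is an inhibitor of thioredoxin and of glucose uptake.

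Bcl6, a repressor that is known to fall where STAT5 is active, moved opposite to Cish at the early times. It stood at 17.2, 47.2, 31.5 and 3.19 CPM in S3 cells, was called higher at 1 h (log2 ratio 1.45, 1.33 to 1.57) and lower at 12 h (-2.43, -2.76 to -2.12). In male-called Slc5a2 cells Bcl6 stood at 7.66, 41.3, 35.1 and 2.64 CPM and Cish at 18.3, 3.62, 1.01 and 17.7 CPM, the same order of libraries as in S3 cells for both genes. In female-called Slc5a2 cells of the same libraries Bcl6 stood at 9.03, 4.59, 8.15 and 7.85 CPM and Cish at 16.8, 24.9, 17.4 and 9.42 CPM. The early change of both genes was therefore seen in S3 cells and in male-called Slc5a2 cells and was not seen in female-called Slc5a2 cells. This difference rests on 1 library per time and was not tested. Irs2 in female-called Slc5a2 cells stood at 15.6, 8.94, 10.7 and 12.7 CPM, against 31.9, 7.24, 5.46 and 17.0 CPM in male-called ones.

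The promoters of Cish and Bcl6 are printed because both genes moved early and in opposite directions, and both were chosen for this after their values were seen. The sequences are from RefSeq on GRCm38.p6, and capitals mark matches to TTCNNNGAA, the palindromic core bound by STAT factors (N is any base, so both strands read alike). Cish lies on the plus strand of chr9:107296654-107296683, around its start site. Bcl6 lies on the minus strand of chr16:23981353-23981463, upstream of the start with the most matches of its 2 entries.
Cish: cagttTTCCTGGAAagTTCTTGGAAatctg
Bcl6: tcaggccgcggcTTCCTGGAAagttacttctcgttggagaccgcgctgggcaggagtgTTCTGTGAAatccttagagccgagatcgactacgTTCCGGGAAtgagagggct
Cish held 2 matches and this Bcl6 entry 3, while 8.29% of 32817 promoters of 300 bases held at least 1. A match describes the letters and not binding.

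Irs2, Bcl6 and Txnip are also on a list of 17 genes that FoxO factors, which insulin signalling restrains, are known to induce. Of this list 2 of 14 tested were called lower at 1 h, 4 of 15 at 4 h and 4 of 14 at 12 h, against 0.571%, 1.25% and 1.62% of all genes, and 1 was called higher at each of 1 and 12 h (Bcl6, then Igfbp1), against 0.3% and 1.05%. Igfbp1, a secreted binder of insulin-like growth factors, stood at 6.87, 10.6, 3.27 and 15.3 CPM and was called lower at 4 h and higher at 12 h. Pdk4, which restrains glucose oxidation, stood at 28.1, 24.5, 12.4 and 8.58 CPM and was called lower at 4 and 12 h. Insr, the insulin receptor, was not called, at 29.9 to 34.6 CPM. Promoters of 13 of the 17 genes were found, and 3 of them (Bbc3, Sesn1 and Txnip) held the forkhead-type motif TGTTTAC on either strand, against 3.65% of all promoters. A gene counted if any of its promoter entries matched, while the 3.65% counts single entries, so they are not like for like. The Txnip stretch is shown because Txnip was called at all 3 times. It comes from the plus strand of chr3:96557807-96557867, and its capitals mark the motif as read on the other strand.
Txnip: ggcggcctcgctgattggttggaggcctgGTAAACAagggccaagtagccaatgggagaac
Sesn1 (1.71 to 2.30 CPM) and Bbc3 (0.508 to 1.58 CPM) were not called at any time.

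Of the clock genes 3 of 17 tested were called higher and 6 lower at 4 h, against 1.45% and 1.25% of all genes, and 2 of 16 were called higher and 4 lower at 12 h, against 1.05% and 1.62%. Arntl, the activator at the head of the clock, stood at 8.13, 9.65, 14.7 and 0.814 CPM in S3 cells, a log2 ratio of -3.29 at 12 h (-3.98 to -2.72), and was detected in 349, 346, 476 and 24 cells. Its partner Npas2 followed the same order, at 5.03, 6.41, 7.73 and 0.814 CPM. Dbp, an output factor that Arntl drives, stood at 15.8, 9.99, 5.95 and 91.3 CPM, with its highest library where Arntl was lowest. Nr1d1, the repressor of Arntl, stood at 23.0, 25.3, 3.73 and 18.3 CPM, and Cry1, a repressor of the Arntl complex, at 1.13, 2.01, 5.79 and 0.814 CPM. Per3 (13.9 to 28.4 CPM) was called higher and Nfil3 (14.3 to 2.51 CPM) lower at 12 h.

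Hours after dosing are also hours of the day, so the dose and the clock cannot be told apart in these libraries. Since S3 cells came largely from male kidneys, Slc5a2 cells of each sex call are set beside them. Male-called Slc5a2 cells gave Arntl at 10.6, 13.9, 22.1 and 2.30 CPM and Dbp at 9.22, 4.73, 3.74 and 57.5 CPM, the same order of libraries as S3 cells. Female-called Slc5a2 cells gave Arntl at 4.04, 5.40, 18.4 and 12.6 CPM and Dbp at 46.3, 22.4, 3.07 and 9.59 CPM. Those female-called cells thus had their highest Dbp at 0 h and the male-called ones at 12 h, and this difference was not tested.

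Clock promoters are shown with the motifs that Arntl complexes (CACGTG, the E-box) and ROR and REV-ERB factors (TAGGTCA) read, searched on both strands. Of 18 clock genes 15 had a RefSeq promoter, 5 of them (Bhlhe41, Ciart, Cry1, Per1 and Tef) with an E-box, against 7.15% of all promoters, and 2 (Arntl and Nfil3) with the ROR element, against 2.61%. A gene counted if any of its promoter entries matched, while the shares over all promoters count single entries, so they are not like for like. The E-box was also found in 4 of the 13 FoxO-type genes with a promoter. The examples were picked after their values were seen: Ciart, which was called lower at 1 and 4 h (1.96, 0.774, 0.485 and 3.15 CPM), Cry1, called higher at 4 h, and Nfil3, called lower at 1 and 12 h. All are on the minus strand, at chr3:95882258-95882358, chr10:85185084-85185144 and chr13:52981040-52981099, and capitals mark the motifs, that of Nfil3 in reverse complement.
Ciart: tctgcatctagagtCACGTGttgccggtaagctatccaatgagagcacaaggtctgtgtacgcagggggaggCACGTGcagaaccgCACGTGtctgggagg
Cry1: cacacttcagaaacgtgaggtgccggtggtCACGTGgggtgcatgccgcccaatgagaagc
Nfil3: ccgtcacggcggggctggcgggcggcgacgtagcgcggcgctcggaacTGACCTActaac
None of the 4 motifs searched contains another. Ciart and Cry1 both hold E-boxes, 3 and 1, and were called in opposite directions at 4 h.

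Glucocorticoid response genes, targets of the adrenal steroid receptor, were called lower in 7 of 12 tested members at 12 h, against 1.62% of all genes, with a median log2 ratio of -1.08. Zbtb16, a zinc finger repressor, stood at 3.99, 4.21, 1.20 and 0.271 CPM and in 151, 141, 40 and 8 S3 cells. Sgk1, a kinase that steroid hormones induce, stood at 25.9, 48.4, 34.4 and 9.8 CPM, and Ddit4, an inhibitor of mTOR signalling, at 13.3, 3.73, 6.79 and 2.82 CPM. Sgk1 was lowest at 12 h, while Ddit4 was low at every time after 0 h. Fkbp5, a co-chaperone of the steroid receptor, was not called, at 45.0, 37.7, 38.0 and 33.6 CPM, nor was Tsc22d3. Zbtb16 was low at 4 and 12 h in male-called Slc5a2 cells (6.17, 9.33, 0.712 and 0.626 CPM) and in female-called ones highest at 4 h (1.60, 1.45, 11.3 and 0.0827 CPM).

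**Figure D5:**
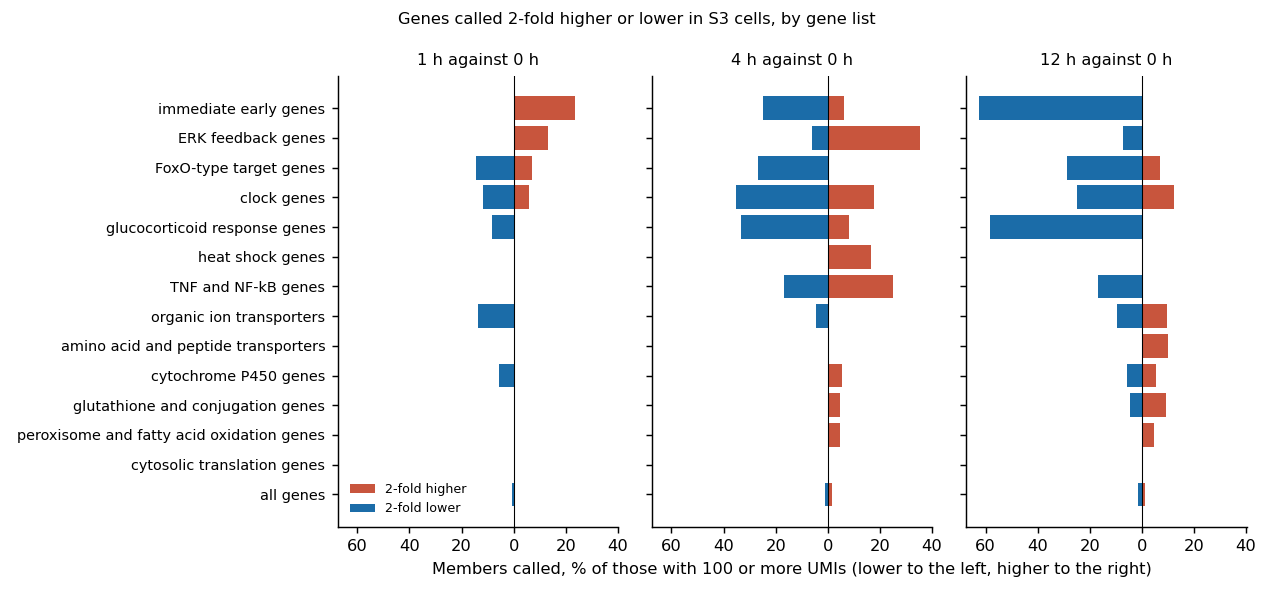
Share of tested members of each gene list (%, horizontal axis, higher to the right and lower to the left) called at least 2-fold different from 0 h in S3 cells; the lowest row is all genes. Immediate early genes lie to the right at 1 h (4 of 17) and to the left at 12 h (10 of 16).

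Of 12 heat shock genes 2 were called higher at 4 h, against 1.45% of all genes, and none at 1 or 12 h, and 11 of the 12 had a positive log2 ratio at 4 h (median 0.60). Hspa1b, an inducible chaperone, stood at 6.46, 7.38, 26.4 and 8.34 CPM, and Hspa1a at 10.9, 9.78, 22.4 and 7.29 CPM; the copies are near-identical in sequence, so reads may be split between them. Tubule injury genes had 1 called higher and 1 lower of 9 tested at 4 h (median -0.16), against 1.45% and 1.25% of all genes. The next genes are given one by one. Tnfrsf12a, the receptor of the cytokine TWEAK, stood at 17.1, 24.7, 101 and 33.7 CPM. Hmox1, the haem-degrading enzyme, stood at 25.5, 35.0, 76.6 and 31.5 CPM in S3 cells, while Slc5a2 cells held 149, 421, 885 and 24.5 CPM. For all of these the 4 h library was the highest in S3 cells. Mt1, a metal-binding metallothionein, was called higher at all 3 times (4.46, 14.3, 23.4 and 14.8 CPM). After thinning, 1.97%, 3.69%, 7.81% and 5.51% of S3 cells held Mt1 (5.2%, 10.4%, 18.2% and 15.2% unthinned). These shares were below the 7.73%, 5.84%, 12.6% and 8.37% of endothelial-gated cells, which may use Mt1 themselves. The part of free RNA in them was not tested. The 4 h library also had the lowest mitochondrial share, and the part of that in these results was not tested.

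Genes that the S3 segment itself uses for transport and detoxification mostly kept within 2-fold, as did most of all genes. No gene for glucose handling and gluconeogenesis (16 tested) or cytosolic translation (16 tested) was called at any time. Among all genes 0.3% to 1.62% were called per time and direction, so lists of this size would seldom hold a call. The glucose list includes Slc5a2, which the rule limits to 1 UMI per cell. Among organic ion transporters 3 of 22 were called lower at 1 h, against 0.571% of all genes, with Slc22a7 at 154, 74.0, 200 and 90.4 CPM, and 2 of 21 each way at 12 h, against 1.05% higher and 1.62% lower of all genes. Slc22a8, an organic anion uptake transporter also counted here as an S1 and S2 marker, stood at 125, 178, 182 and 333 CPM. Slco1a1, a male-biased anion transporter, stood at 583, 554, 511 and 236 CPM, so it and Slc22a8 moved in opposite directions at 12 h. Abcc4, an efflux pump for organic anions, was called higher at 12 h (1.05, 1.86, 2.32 and 7.40 CPM). Slc5a2 cells held more of both Slc22a8 (365 to 510 CPM) and Abcc4 (33.4 to 60.4 CPM) in every library. Abcb1a, the multidrug efflux pump, was called higher at 12 h too, at 0.981, 1.40, 1.58 and 8.14 CPM.

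Amino acid transporters held 2 genes called higher at 12 h of 20 tested, against 1.05% of all genes, Slc7a7 (27.6, 25.8, 31.0 and 65.8 CPM) and Slc38a3 (4.03, 5.20, 7.91 and 9.13 CPM). Slc7a7, a basolateral exporter, is counted here as a marker of S1 and S2, where Slc5a2 cells held 300.1 to 377 CPM. Of the 12 S1 and S2 markers tested, which include Slc5a2, 2 were called higher at 12 h (Slc7a7 and Slc22a8), against 1.05% of all genes. Slc38a3 was lower in Slc5a2 cells, at 0.219 to 0.737 CPM. Conjugation and redox genes Gsta2 (58.3, 87.2, 115 and 151 CPM) and Nqo1 (32.6, 32.6, 37.9 and 77.4 CPM) were called higher at 12 h. In Slc5a2 cells Gsta2 was higher (902 to 993 CPM) and Nqo1 lower (12.0 to 30.3 CPM). Acsm3, a fatty acid CoA ligase, was called lower at 12 h (663, 518, 491 and 326 CPM). In the cytochrome P450 list Cyp4a14 was called higher at 4 and 12 h (9.28, 10.7, 43.0 and 38.7 CPM), Cyp4a12a lower at 12 h (57.7, 47.4, 50.2 and 18.4 CPM) and Cyp7b1 lower at 1 h. These were at most 1 of 18 tested per time and direction, against 0.3% to 1.62% of all genes. Both Cyp4a genes are fatty acid hydroxylases.

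Several S3 genes linked to androgen or estrogen had lower values at 12 h. Of 17 measured members of that list 13 had a negative log2 ratio at 12 h, with a median of -0.52 against -0.06 for all genes. The list includes Slc7a13, the gene of the rule, whose own ratio is that median, so the median is not independent of how the cells were chosen. Only 2 of 16 tested were called lower, against 1.62% of all genes, Slco1a1 and Acsm3. Of the S3 markers, Slc7a13, Slc22a30 and Cyp7b1 are on that list and Atp11a is not. All 4 markers had negative ratios at 12 h, and Atp11a was the marker called lower, at a log2 ratio of -1.11 (-1.15 to -1.08). Kap, an androgen-regulated kidney protein, took 7.57%, 6.40%, 7.12% and 6.87% of all UMIs of S3 cells. It was not called at any time.

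Other genes that the rule for naming selected at 4 and 12 h started from low levels. Fgf18, a ligand of FGF receptors, stood at 0.875, 1.84, 8.88 and 12.1 CPM and was detected in 41, 71, 308 and 289 S3 cells. Ramp2, an accessory protein of calcitonin-family receptors, stood at 2.82, 3.1, 18.3 and 17.0 CPM and was detected in 113, 110, 472 and 346 S3 cells. Ramp2 is also known from endothelium, and the summed endothelial markers in S3 cells were 9.73, 7.55, 16.1 and 25.4 CPM, all 6 with positive log2 ratios at 4 and 12 h; their part in this result was not tested. Serpina1a, the protease inhibitor alpha-1-antitrypsin, stood at 13.3, 7.74, 48.2 and 93.5 CPM, and the transcript AY036118 at 12.3, 13.0, 41.0 and 80.5 CPM. Fgf18, Ramp2, Serpina1a and AY036118 were called higher at both 4 and 12 h. Serpina1 genes are close copies of each other, so reads of Serpina1a are uncertain. Clec2h, a lectin-like receptor, was called lower at 4 h (8.90, 6.17, 1.10 and 6.17 CPM).

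Some of the genes with the largest ratios came from a handful of barcodes. Col3a1, the gene with the largest ratio at 1 h, had all of its 1 h UMIs in 1 cell, and Ccl21a, the largest at 12 h, had its UMIs in 2 cells and none in other libraries. Smooth muscle and pericyte genes at 4 h were alike: 99.4% of Myh11 UMIs, 97.7% of Rgs5 UMIs and 96.9% of Acta2 UMIs were in 5 cells. Nupr1, Havcr1 and C1qb, called lower at 1 h, had 97.2%, 92.4% and 89.3% of their 0 h UMIs in 5 cells. These genes mark stroma, injured tubule or macrophages, and their calls describe a few barcodes. Without doublet calls the log2 ratios of Col3a1 at 1 h and of Rgs5 and Acta2 at 4 h turned negative, at -2.63, -0.058 and -0.21. Ins2 (38, 30, 1 and 0 cells), Cxcl2 (29, 20, 3 and 0 cells), Cxcl10 (25, 19, 17 and 5 cells), Gbp2 (33, 19, 26 and 7 cells) and Mki67 (15, 16, 11 and 5 cells) were called lower at 12 h from few cells as well. The summed level of 6 podocyte and stromal markers in S3 cells was 3.26, 1.81, 18.2 and 5.53 CPM, that of 6 macrophage markers 112, 57.6, 61.0 and 63.0 CPM, and that of 5 neutrophil markers 178, 151, 332 and 193 CPM. The 6 endothelial markers summed to 9.73, 7.55, 16.1 and 25.4 CPM and the 5 intercalated cell markers to 8.28, 12.7, 18.6 and 20.6 CPM, higher in the later libraries. At 4 h 317 CPM of the neutrophil sum was G0s2, an inhibitor of lipolysis that is not restricted to neutrophils, whereas S100a8 stood at 38.9, 32.2, 5.03 and 5.50 CPM. The part of these cells in the results above was not tested.

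S3 cells were set against Slc5a2 cells with the 4 libraries as replicates, summing UMIs per library and class. The rule chose cells on this contrast, so the values describe how the classes differ and support nothing further. By edgeR's quasi-likelihood test, with a library block and the 5 genes of the rule left out, 1133 of 13812 genes were at least 2-fold higher in S3 cells at an adjusted p below 0.05 (8.2%) and 1628 lower (11.8%). Among genes with a mean of 50 CPM or more in the higher class, the largest fold was that of Slco1a1, with a mean of 471 CPM in S3 cells and 2.27 CPM in Slc5a2 cells. Slc22a7 (130 and 1.96 CPM), the medium-chain acyl-CoA ligase Acsm3 (500 and 8.49 CPM) and the steroid hydroxylase Cyp2a4 (257 and 4.71 CPM) followed the same pattern. Mep1b and Ace, brush border peptidases, and Cd36, a fatty acid receptor, were among the others.

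Among the genes lower in S3 cells, Slc5a12, a lactate transporter, was at 1.83 CPM in S3 cells and 319 CPM in Slc5a2 cells, Slc34a3 at 0.930 and 126 CPM, and Gatm, which makes the creatine precursor, at 75.3 and 2528 CPM. Of the S1 and S2 markers 8 of 11 tested were lower in S3 cells, against 11.8% of all genes. The exception that was higher, against 8.2% of all genes, was Slc22a6 (991 and 214 CPM). Of 21 cytochrome P450 genes 13 were higher and 1 lower, against the same 8.2% and 11.8% of all genes. Cyp2e1 stood at 824 and 105 CPM and Cyp2d26, the lower one, at 13.5 and 318 CPM. Organic ion transporters were higher in 14 of 25 and lower in 2, and amino acid transporters divided, with 7 higher and 8 lower of 19. Both are set against 8.2% higher and 11.8% lower of all genes. Slc6a18 (287 and 34.0 CPM) was an example of the higher and Slc6a19 (21.9 and 404 CPM) of the lower neutral amino acid transporters. For glutathione, Ggt1, which cleaves it at the brush border, stood at 1228 and 325 CPM, while Gpx3, the secreted peroxidase, stood at 3570 and 18069 CPM.

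None of the 10 tested genes of the FGF receptor and Klotho list differed 2-fold between the classes, against 8.2% of all genes called higher and 11.8% lower. Kl averaged 180 CPM in S3 cells and 182 CPM in Slc5a2 cells, Fgfr1 11 CPM in each, Fgfr3 14.2 and 24.1 CPM and Fgfr4 14.4 and 13.3 CPM. Fgfr3 was lower in S3 cells in all 4 libraries, with log2 ratios of -0.84 to -0.70. Of 19 ERK feedback genes 7 were lower in S3 cells, against 11.8% of all genes, and 1, Dusp4, was higher (9.10 and 4.44 CPM), against 8.2%. Spry1 (1.24 and 7.36 CPM), Etv5 (6.28 and 18.2 CPM) and Il17rd (1.81 and 10.7 CPM) were among the lower ones. Limited to male-called cells of each class, 951 genes were higher and 1426 lower, and 2163 of the 2761 genes were called the same way.

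Female-called S3 cells were few, at 26, 12, 28 and 18 cells. Male-called and female-called S3 cells were compared in the 0 and 4 h libraries, the 2 with 20 or more cells of each, by edgeR's quasi-likelihood test with a library block. Of 11719 genes 52 were higher in male-called cells (0.444%) and 386 lower (3.29%). Prlr, the prolactin receptor, averaged 3.31 CPM in male-called and 188 CPM in female-called cells, and Slc7a12, a close relative of Slc7a13, averaged 5.31 and 241 CPM. Ugt2b37, a steroid-conjugating enzyme, was higher in male-called cells, at 247 and 100.4 CPM. Many of the other lower genes mark stroma or immune cells, such as Vim, Acta2, Rgs5 and H2-Eb1. Of the female-called cells 30.8%, 25%, 42.9% and 66.7% carried a doublet call, against 4.78% to 5.97% of the male-called ones, and the part of doublets in this comparison was not tested. The counts of higher genes were 6 with DESeq2 and 3 without the library block.

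Slc7a12 then served to find barcodes that the Slc7a13 rule leaves out, a choice made after the sex comparison was seen. Barcodes with 3 or more UMIs of Slc7a12 and the same limits on the other genes numbered 154, 91, 157 and 135, of which 22, 11, 20 and 10 were also S3 cells by the rule. Female calls were 72, 44, 62 and 54 of them and male calls 13, 6, 7 and 8. Their Atp11a was 500, 498, 364 and 397 CPM, against 629, 631, 381 and 291 CPM in S3 cells, and their Slc22a30 was 104, 82.9, 47.2 and 56.9 CPM. Egr1 stood at 11.3, 247, 26.8 and 6.36 CPM and Dusp6 at 19.5, 59.7, 30.1 and 15.9 CPM, highest at 1 h as in S3 cells. Cyp24a1 stood at 1.36, 7.96, 24.1 and 11.5 CPM, below its level in S3 cells in every library. It was lowest at 0 h as in S3 cells, but highest at 4 h. Kl stood at 64.7, 88.9, 32.1 and 37.8 CPM. The differences between these barcodes and the S3 cells were not tested.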

How the data were processed

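The deposited matrices hold raw UMI counts per gene and barcode, not normalised, over 31053 features. Cell Ranger 3.1.0, STAR, Seurat and build mm10 are named in the submitters' processing notes, without their roles. Each deposited matrix lists 12245 to 13813 barcodes, not all droplets. Gene positions are from GENCODE vM21 by gene ID (99.86% found). The members, gene lists and tests were chosen with earlier results of these data known.

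UMIs were summed over the S3 cells of each library and scaled to CPM. Log2 ratios to 0 h had 0.5 added to each sum, with exact conditional binomial intervals. Lists use members with 20 or more UMIs over both libraries. Named were the 8 called genes with the largest rise and the 8 with the largest fall per time, the 12 largest in each direction for classes and sex calls (50 CPM or more in the higher class and 2-fold in every library used), and members of the fixed lists; mitochondrial, ribosomal, haemoglobin, immunoglobulin, sex-linked, Gm and Rik genes and the genes of the rule were not named this way. Class and sex comparisons used edgeR 4.0.16 (TMM, quasi-likelihood, Benjamini-Hochberg), with DESeq2 1.42.0 as the alternative (R 4.3.3). Sums and thinning used Python 3.11.15 with numpy 2.4.6 and scipy 1.17.1. Doublets were called from scanpy 1.11.5 scrublet scores at 0.8% per 1000 barcodes of a library. The scripts were tested on simulated data.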

Additional observations from a re-analysis of the deposited data

Results flagged for a closer look

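Nupr1, a stress-induced chromatin protein, had a log2 ratio of -3.70 at 12 h in S3 cells and of 2.76 in Slc5a2 cells, and is given here because the classes went opposite ways. This difference was not tested. The S3 value rests on 17 barcodes of the 0 h library that held Nupr1, with 97.2% of its UMIs in 5 of them.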

How the results depend on the processing

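Depth limits genes under about 100 UMIs per comparison and the female-called cells. No paired analysis of the times was possible because each time has 1 library, so the time groups share no more than 1 replicate number. The class and sex comparisons were blocked by library. At 1, 4 and 12 h the genes called higher numbered 73, 328 and 198 with a minimum of 30 UMIs, 20, 90 and 68 with a minimum of 300 UMIs, and 7, 15 and 16 in female-called S3 cells alone. Those called lower numbered 146, 277 and 330, then 35, 83 and 101, then 19, 15 and 28. The S3 share at 0, 1, 4 and 12 h was 28.3%, 24.4%, 19.7% and 16.4% with a minimum of 1000 genes, 23.2%, 20.6%, 16.4% and 12.4% with 5 or more UMIs of Slc7a13, and 17.6%, 13.8%, 9.54% and 6.56% after thinning to 3000 UMIs. With a mitochondrial limit of 25% it was 26.7% at 0 h and 22.7% at 4 h. Its order over the libraries was the same in each of these. Without doublet calls the log2 ratios of Col3a1 at 1 h (-2.63) and of Sparcl1 (-0.12), Rgs5 (-0.058) and Acta2 (-0.21) at 4 h reversed, and 42 of 48 named entries stayed 2-fold. Leaving out each library in turn gave 1060 to 1141 genes higher and 1518 to 1635 lower in S3 than in Slc5a2 cells. Between sex calls, 6 genes were higher with DESeq2, 3 higher and 173 lower without the library block, and 173 lower with 2 or more sex-linked UMIs; the cause was not tested. Leaving out a library there was not run, since 1 would remain. Scaling without mitochondrial UMIs, chosen after seeing the data, put the median of all genes at -0.10 at 4 h. Of 576 list medians under alternatives 44 had the other sign than the reported one, and the largest reported median among them was 0.28 in size.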
